A study of Mus musculus with 11 samples.

Results

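Cytosolic ribosomal protein genes encode the proteins that, together with ribosomal RNA, build the large (60S) and small (40S) subunits of the ribosome outside mitochondria. The genes described here are those whose symbol begins with Rpl or Rps followed by a digit, together with Rplp0, Rplp1, Rplp2 and Rpsa. Kinases of the Rps6k family and symbols marked as pseudogenes by -ps were left out. On the mouse array used here 63 of 19937 genes with a row of their own met this definition. Of these, 30 encode proteins of the large subunit, 21 of the small subunit and 3 the stalk of the large subunit (Rplp0, Rplp1, Rplp2), so 54 are subunit genes. A further 7 are divergent paralogs or copies (Rpl3l, Rpl7l1, Rpl10l, Rpl32l, Rpl39l, Rps4l, Rps27l), of which Rps4l is a transcribed pseudogene in RefSeq and met the definition by its symbol. The last 2, Rps19bp1 and Rps23rg1, meet the definition by their letters only and encode no ribosomal subunit.

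The arrays held splenic T cells of a mouse model of T-cell prolymphocytic leukemia, in which the human oncogene TCL1A was expressed from the proximal Lck promoter, which is active from the thymic stage of T-cell development on. Wild-type controls were 3 arrays of CD3+ pan-T cells of age-matched C57BL/6 mice, each a pool of 3 mice. Leukemic cells came from Lckpr-TCL1A+/- mice and were enriched for CD8+ cells. There were 3 arrays of the chronic phase, with 30 to 70% tumor cells and an average age of 12 months. Another 5 arrays were of the exponential phase, with over 80% tumor cells in blood and over 90% in spleen, an average age of 15 months and a mean lymphocyte doubling time of 12 days (SEM 0.8). Leukemia, transgene and CD8+ enrichment therefore changed together between wild type and leukemia and cannot be told apart. Pooling of mice is stated for the wild type only. Between the phases, average age and the share of tumor cells changed along with the phase and cannot be told apart from it. Because the labels do not tie each leukemia array to a mouse of its own, the p-values reflect variation among arrays, part of which may be technical. In bulk RNA, fewer cells of a type and less RNA per cell cannot be told apart. Values are log2 intensities after robust multiarray averaging (RMA), and a difference of 1 is a doubling.

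As background, ribosomal protein mRNAs are among the most abundant mRNAs of growing cells and their products assemble with ribosomal RNA in near-equal amounts. Many of these mRNAs begin with a C and a run of pyrimidines, the terminal oligopyrimidine (TOP) sequence, through which mTORC1 signaling controls their translation. MYC is known to drive transcription of ribosomal protein and ribosome assembly genes. A few ribosomal proteins, among them those of Rpl5 and Rpl11, bind Mdm2 when assembly is disturbed. An array measures mRNA level, not translation.

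Start sites from RefSeq (build GRCm38.p6) were matched for 51 of the 63 genes, 43 of them subunit genes. A TOP start, here a C as first base followed by at least 4 bases C or T, was found in 10 of the 51 genes (19.6%), against 3.01% of all 27025 genes with an entry. These 10 were Rpl14, Rpl28, Rpl32l, Rpl38, Rplp2, Rps6, Rps10, Rps15a, Rps18 and Rps21. Start windows of 30 bases, 15 on each side of the start, are shown for 4 of these genes. Windows are also shown for 4 genes that recur in the results and had no TOP start at an annotated start. The match depends on the annotated first base, so a gene counted without a TOP start may still make TOP mRNA. Capitals mark the pyrimidine run, or the annotated first base where there was none.
Rpl14 (chr9:120571502-120571531, + strand): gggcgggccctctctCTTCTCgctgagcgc
Rps6 (chr4:86857353-86857382, - strand): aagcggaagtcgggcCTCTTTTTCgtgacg
Rps18 (chr17:33955651-33955680, - strand): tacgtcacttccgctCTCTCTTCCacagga
Rpl28 (chr7:4792950-4792979, + strand): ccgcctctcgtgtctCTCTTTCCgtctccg
Rpl19 (chr11:98026695-98026724, + strand): tgaccaaacgccctcActgcgcatgtgcgc
Rps7 (chr12:28635939-28635968, - strand): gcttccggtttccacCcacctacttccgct
Rps19 (chr7:24884577-24884606, + strand): tccgaaatctcgcgaGactcgacgcccgac
Rps2 (chr17:24720048-24720077, + strand): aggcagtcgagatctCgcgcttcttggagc
Rpl19 had 2 annotated starts and Rps19 had 3, of which the first listed is shown.

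In windows from 250 bases before to 50 bases after the start, the E-box CACGTG (identical on both strands), a sequence that MYC and other factors bind, occurred in 5 of 51 genes (9.8%) and in 8.09% of all genes. The letters CCGGAAG, the core of ETS-family motifs, occurred on either strand in 19 of 51 (37.3%), against 9.93% of all genes. The letters TATAAA on the sense strand, 40 to 15 bases before the start, were found in 0 of 51 and in 2.41% of all genes. A match is a description of the sequence, not evidence of binding. The 5 windows with CACGTG (capitals) are shown because 3 of them belong to Rpl14, Rpl19 and Rps19, which had some of the largest differences below.
Rpl14 (chr9:120571337-120571366, + strand, motif 168 bases before the start): ccaagctcactgCACGTGtctgaggagaag
Rpl19 (chr11:98026679-98026708, + strand, 19 bases before the start shown above): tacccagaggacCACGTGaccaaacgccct
Rpl23 (chr11:97782425-97782454, - strand, 3 bases before the start): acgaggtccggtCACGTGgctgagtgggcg
Rpl34 (chr3:130730536-130730565, - strand, 155 bases before the nearer of its starts): cacctaacttctCACGTGacgttcctaccg
Rps19 (chr7:24884781-24884810, + strand, 120 bases before another of its starts): tggagccgcggcCACGTGcgagcggcaggc

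Not every ribosomal protein gene could be read on its own. Another 20, among them Rpl3, Rpl11, Rpl13a, Rpl22l1, Rpl36al, Rpl39 and Rps27, had only rows that carry several gene symbols and are not described. Of the 63 genes, 38 had more than 1 row (60.3%, against 4.79% of all genes) and Rpl23a had 10. Ribosomal protein genes have many processed copies in the mouse genome, and a row may detect a copy as well as the parent gene. The row with the highest mean is described, and the other rows are compared further on. The standard deviation over the 11 arrays ranged from 0.0976 for Rpl39l to 0.808 for Rps27l, with a median of 0.293 against 0.194 for all genes. All 54 subunit genes had means above the median array value, and the set of all genes was not matched to them in level. The smallest spreads were those of Rpl39l, Rpl3l (0.127) and Rpl23a (0.138), and the largest those of Rps27l, Rpl21 (0.787) and Rps2 (0.785). Rpl39l and Rpl3l had means of 1.73 and 1.80, below the median array value of 2.30. Their small spread therefore does not show steady expression.

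The chronic phase was first compared with wild type. No ribosomal protein gene reached an adjusted p below 0.05 with a fold of at least 1.5 by limma (called), where 0.456% of all genes did. The methods' t-test also called 0 after Benjamini-Hochberg adjustment. Most differences were positive, 48 of 63, against 49.7% of all genes, and their median was 0.19, against -0.00 for all genes. At an unadjusted p below 0.05, 10 were higher (6.36% of all genes) and 0 lower (4.80%). All chronic arrays lay above all wild-type arrays for 12 genes (8.28% of all genes) and below for 1, Rpl3l (7.52%). This shift depended on single arrays: without chronic 1 the median was 0.05 with 35 differences above 0, and without wild type 3 it was 0.07 with 42.

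Among large-subunit genes, Rpl14 measured 3.74, 4.41 and 4.13 in the wild-type arrays and 5.63, 4.75 and 5.62 in the chronic ones. All chronic values were higher, with a difference of 1.24 (SE 0.27, limma adjusted p = 0.125). Rpl36a, the product of which lies near the exit site for tRNA, measured 10.19, 10.47 and 10.27 in wild type and 11.08, 10.76 and 10.70 in the chronic phase. Again the groups did not overlap, with a difference of 0.53 (SE 0.15, limma adjusted p = 0.216). Rpl19 measured 8.37, 8.42 and 8.05, then 8.88, 8.56 and 8.97, a difference of 0.52 (SE 0.16, limma adjusted p = 0.269). Rpl5, the partner of 5S ribosomal RNA, differed by 0.34 (SE 0.12, limma adjusted p = 0.330) and Rpl4 by 0.37 (SE 0.13, limma adjusted p = 0.331), both without overlap.

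The 5 subunit genes with the most negative differences overlapped between groups. Rps2, a small-subunit protein gene, gave the most negative difference, -1.01 (SE 0.55, limma adjusted p = 0.590). Its values were 9.03, 7.14 and 8.53 in wild type and 8.11, 7.15 and 6.40 in the chronic phase, so wild type 2 lay at the chronic level. Rpl21 differed by -0.69 (SE 0.31, adjusted p = 0.481), Rpl7a by -0.60 (SE 0.29, adjusted p = 0.529), Rpl37a by -0.59 (SE 0.48, adjusted p = 0.761) and Rpl29 by -0.53 (SE 0.25, adjusted p = 0.506), all by limma. Without chronic 3, Rpl7a alone was called, as lower in the chronic phase (limma adjusted p = 0.0334). Rpl7a measured 3.48, 3.57 and 4.65 in chronic 1, 2 and 3 and 4.52, 4.56 and 4.42 in wild type. Its other rows went the other way. Over all arrays their chronic minus wild type differences were 0.77 and 0.28, against -0.60 for the row described.

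The exponential phase, compared with the same wild-type arrays, gave no called ribosomal protein gene by limma either, where 0.416% of all genes were called, and 0 by the methods' t-test after adjustment. Here 53 of 63 differences were above 0 (51.7% of all genes), with a median of 0.21 against 0.01 for all genes. At an unadjusted p below 0.05, 22 were higher (4.79% of all genes) and 0 lower (4.99%). For 15 genes all exponential arrays lay above all wild-type arrays (3.28% of all genes) and for 0 genes below them (3.50%). By role, 24 of 30 large-subunit, 19 of 21 small-subunit and all 3 stalk genes were above 0, with medians of 0.20, 0.36 and 0.22. Without exponential 4, 54 of 63 were above 0, the median was 0.29 and 2 genes were called as higher, Rpl14 and Rps18. The share of all genes called in that run is not given here. Exponential 4 had low Cd8a (2.96) and raised Cd4 (5.18), against the CD8+ enrichment of the leukemic cells.

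**Figure D1:**
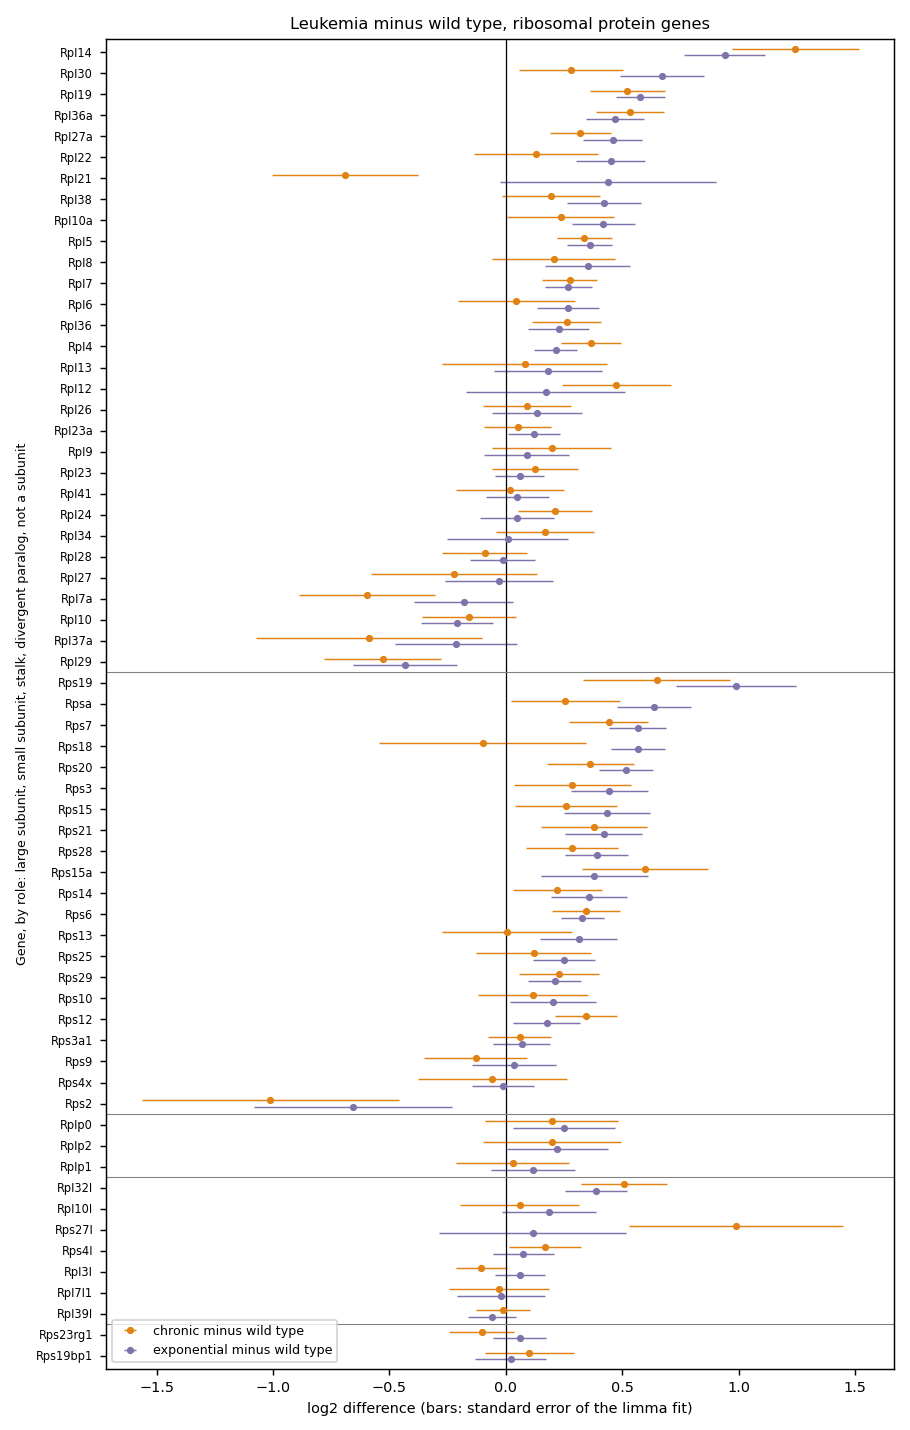
Log2 difference from wild type (x axis) of each of the 63 genes (y axis, grouped by role) in the chronic phase (orange, 3 arrays) and the exponential phase (purple, 5 arrays), each against the same 3 wild-type arrays. Points are limma estimates and bars their standard errors. In the exponential phase 53 of 63 points lie right of 0, and Rps2 lies farthest left.

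In the exponential phase, the large-subunit gene Rpl14 measured 4.93, 5.16, 5.37, 4.91 and 4.82, all above the highest wild-type value of 4.41 (difference 0.94, SE 0.17, limma adjusted p = 0.0650). Rpl19 measured 8.88, 8.88, 8.81, 8.80 and 8.92, a narrower range than that of the wild-type arrays. It lay above all of them by a mean of 0.58 (SE 0.11, limma adjusted p = 0.0643). Rpl30 differed by 0.67 (SE 0.18, limma adjusted p = 0.201) and Rpl27a by 0.46 (SE 0.13, limma adjusted p = 0.210), both without overlap. The mean of Rpl36a was 0.47 above wild type (SE 0.12, limma adjusted p = 0.190) and that of Rpl5 0.36 (SE 0.10, limma adjusted p = 0.201). Rpl22, which in T cells is known for its role in early development, differed by 0.45 (SE 0.15, limma adjusted p = 0.309) with overlapping values.

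Among small-subunit genes, Rps18 measured 10.53, 10.53, 10.53, 10.28 and 10.41 in the exponential phase and 10.10, 9.87 and 9.70 in wild type. The groups did not overlap and the difference was 0.57 (SE 0.12, limma adjusted p = 0.0889). Rps7 measured 10.88, 10.71, 10.81, 10.71 and 10.91, against 10.25, 10.48 and 9.98. Its difference was also 0.57, again with no overlap (SE 0.12, limma adjusted p = 0.104). Rps20 differed by 0.52 (SE 0.11, limma adjusted p = 0.112). Rpsa, the gene of the ribosomal protein also known as the laminin receptor precursor, measured 8.53, 8.45, 8.54, 8.67 and 8.28 against 8.18, 7.93 and 7.47. All exponential values were the higher ones, by a mean of 0.64 (SE 0.16, limma adjusted p = 0.166).

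Rps19, which is mutated in Diamond-Blackfan anemia, had the largest difference of the exponential phase, 0.99 (SE 0.26, limma adjusted p = 0.187). It measured 8.70, 8.39, 8.55, 8.66 and 8.05 in the exponential phase and 6.99, 8.20 and 7.26 in wild type. Wild type 2 lay above exponential 5, so the groups overlapped. Rps6, whose protein is the substrate of the S6 kinases downstream of mTORC1, measured 12.07, 12.27 and 12.27 in wild type. It reached 12.52, 12.52, 12.56, 12.61 and 12.44 in the exponential phase, without overlap (difference 0.33, SE 0.09, limma adjusted p = 0.215). Other small-subunit genes gave values in the same direction, Rps3 0.44 (SE 0.16), Rps14 0.36 (SE 0.16) and Rps29 0.21 (SE 0.11). Their limma adjusted p-values were 0.387, 0.525 and 0.630.

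**Figure D2:**
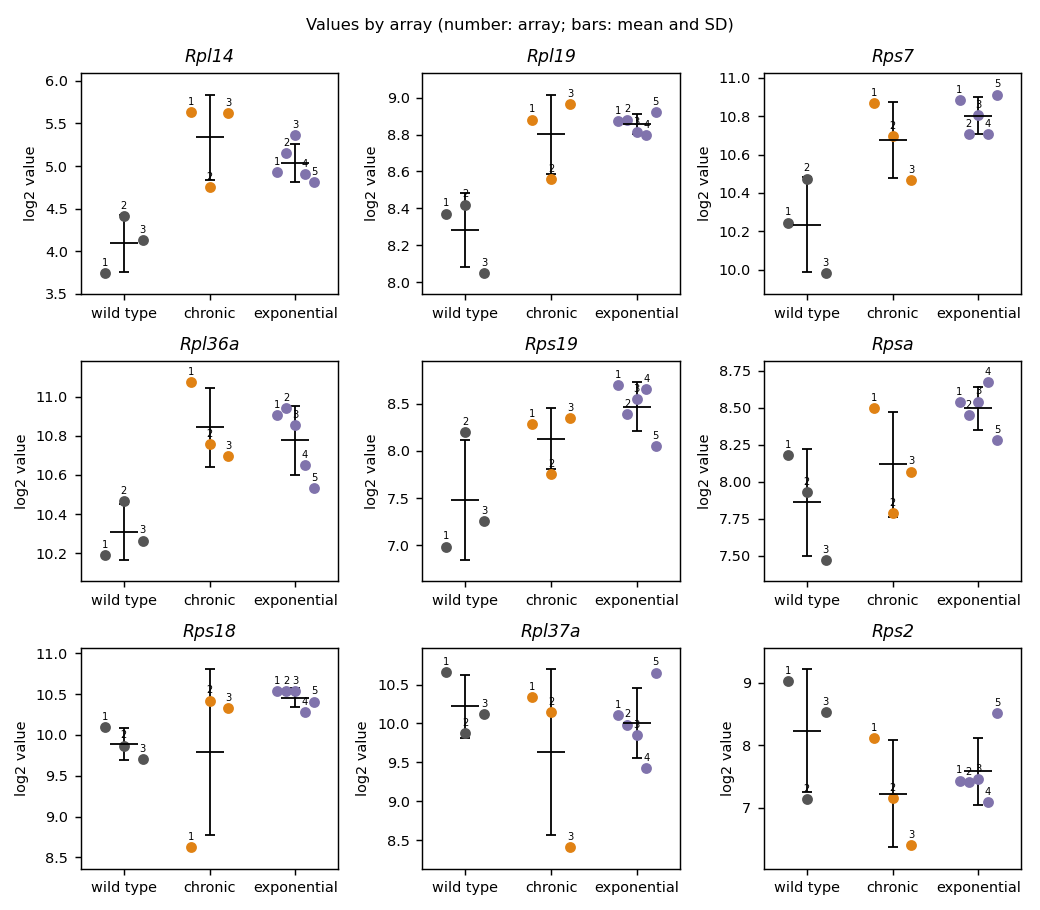
Log2 RMA values (y axis, scaled separately for each gene) of 9 genes in each array, with array numbers beside the points and bars for the group mean and SD. Rpl14, Rpl19 and Rpl36a separate all 8 leukemia arrays from wild type, Rps18 has a single low value of 8.62 in chronic 1, Rpl37a one of 8.41 in chronic 3, and Rps2 spreads within every group.

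The stalk genes, which form the part of the large subunit that recruits translation factors, differed little. Against wild type, Rplp0 was at 0.20 in the chronic phase (SE 0.29) and 0.25 in the exponential phase (SE 0.22). Rplp1 was at 0.03 (SE 0.24) and 0.12 (SE 0.18), and Rplp2 at 0.20 (SE 0.30) and 0.22 (SE 0.22), with limma adjusted p-values from 0.804 to 0.985. Rps4x, the X-linked member of the small subunit, differed by -0.06 (SE 0.32) and -0.01 (SE 0.13). Rpl10, also X-linked and known for recurrent mutations in T-cell acute lymphoblastic leukemia, differed by -0.16 (SE 0.20) and -0.21 (SE 0.15). The limma adjusted p-values of Rps4x and Rpl10 in these 2 comparisons lay between 0.758 and 0.992.

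The divergent paralogs were uneven. Rps27l, a p53 target gene, had the widest range of all 63 genes. It measured 3.34, 4.07 and 4.09 in wild type, 3.85, 4.80 and 5.81 in the chronic phase and 2.84, 4.84, 3.85, 4.48 and 3.73 in the exponential phase. The differences from wild type were 0.99 (SE 0.46, limma adjusted p = 0.497) in the chronic and 0.12 (SE 0.40, limma adjusted p = 0.967) in the exponential phase, with overlap in both. Rpl32l differed by 0.51 (SE 0.18) and 0.39 (SE 0.13) without overlap, at limma adjusted p-values of 0.351 and 0.339. It was dim, with a mean of 2.30, about the median array value. The muscle-enriched Rpl3l and the testis-enriched Rpl10l and Rpl39l showed no called difference in any comparison by limma.

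The exponential and chronic phases were also compared directly. No gene on the array was called in this comparison (0% of all genes) by limma, ribosomal or other, and the methods' t-test called 0 after adjustment. The median difference of the 63 genes was 0.08, with 43 above 0 (51.1% of all genes). At an unadjusted p below 0.05, 3 were higher in the exponential phase (2.75% of all genes) and 0 lower (3.50%): Rpl30 by 0.39 (SE 0.13, limma adjusted p = 0.765), Rpl21 by 1.13 (SE 0.42, limma adjusted p = 0.778) and Rpsa by 0.38 (SE 0.16, limma adjusted p = 0.795). Rpl21 was the single gene with all exponential arrays above all chronic ones (2.30% of all genes), and 0 genes had them all below (2.25%). It measured 5.95, 6.38 and 6.08 in the chronic phase and 8.51, 6.89, 6.84, 7.70 and 6.41 in the exponential phase. The wild-type arrays measured 7.11, 7.32 and 6.06 for Rpl21 and overlapped with both phases. The other rows of Rpl21 did not share the rise, with exponential minus chronic differences from -0.83 to 0.10. The direction of the median rested on single chronic arrays, since it was 0.21 without chronic 1 and -0.03 without chronic 3. Without exponential 4 it was 0.14.

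All 8 leukemia arrays were then set against wild type. Rpl14 alone was called, and rose by 1.05 (SE 0.21, limma adjusted p = 0.0413), a 2.08-fold higher level (0.722% of all genes were called, 0.281% as higher). Rpl14 and Rpl19 were the 2 members with an adjusted p below 0.05 at any fold (0.813% of all genes). Rpl19 had the smaller one (limma adjusted p = 0.0311), but its difference of 0.56 (SE 0.11) is a 1.47-fold change and fell short of the fold threshold. The median difference was 0.21, 50 of 63 were above 0 (51.1% of all genes), and at an unadjusted p below 0.05 19 were higher (5.47%) and 1 lower (5.10%). The lower one was Rpl29 at -0.47 (SE 0.18, limma adjusted p = 0.371). For 10 genes the 8 leukemia arrays all lay above the 3 wild-type arrays (1.67% of all genes) and for 0 below them (1.65%). The 10 were Rpl4, Rpl5, Rpl7, Rpl14, Rpl19, Rpl27a, Rpl32l, Rpl36a, Rps6 and Rps28. Rps7, Rpl36a and Rpl5 followed with differences of 0.52 (SE 0.12), 0.49 (SE 0.12) and 0.35 (SE 0.08) and limma adjusted p-values of 0.0708, 0.0864 and 0.0892.

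The call of Rpl14 was not stable. It was lost when wild type 1, 2 or 3, chronic 1, or exponential 1, 2 or 3 was left out, with limma adjusted p-values from 0.0536 to 0.263, while the difference stayed between 0.88 and 1.21. It was also lost with the methods' t-test (adjusted p = 0.152) and when all rows of the array were tested (limma adjusted p = 0.0804). Without exponential 4 it held (difference 1.09, limma adjusted p = 0.0286). Without wild type 2, Rps19 was called in its place. Rpl14 is represented by 1 row, so no other row of the array could be set beside it. That row was dim for a subunit gene, with a mean of 4.86, though above the median array value of 2.30. The median over the 54 subunit genes ran from 8.74 in wild type 3 to 9.31 in exponential 3. Whether the low level of the row affected the size of the difference was not tested.

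**Figure D3:**
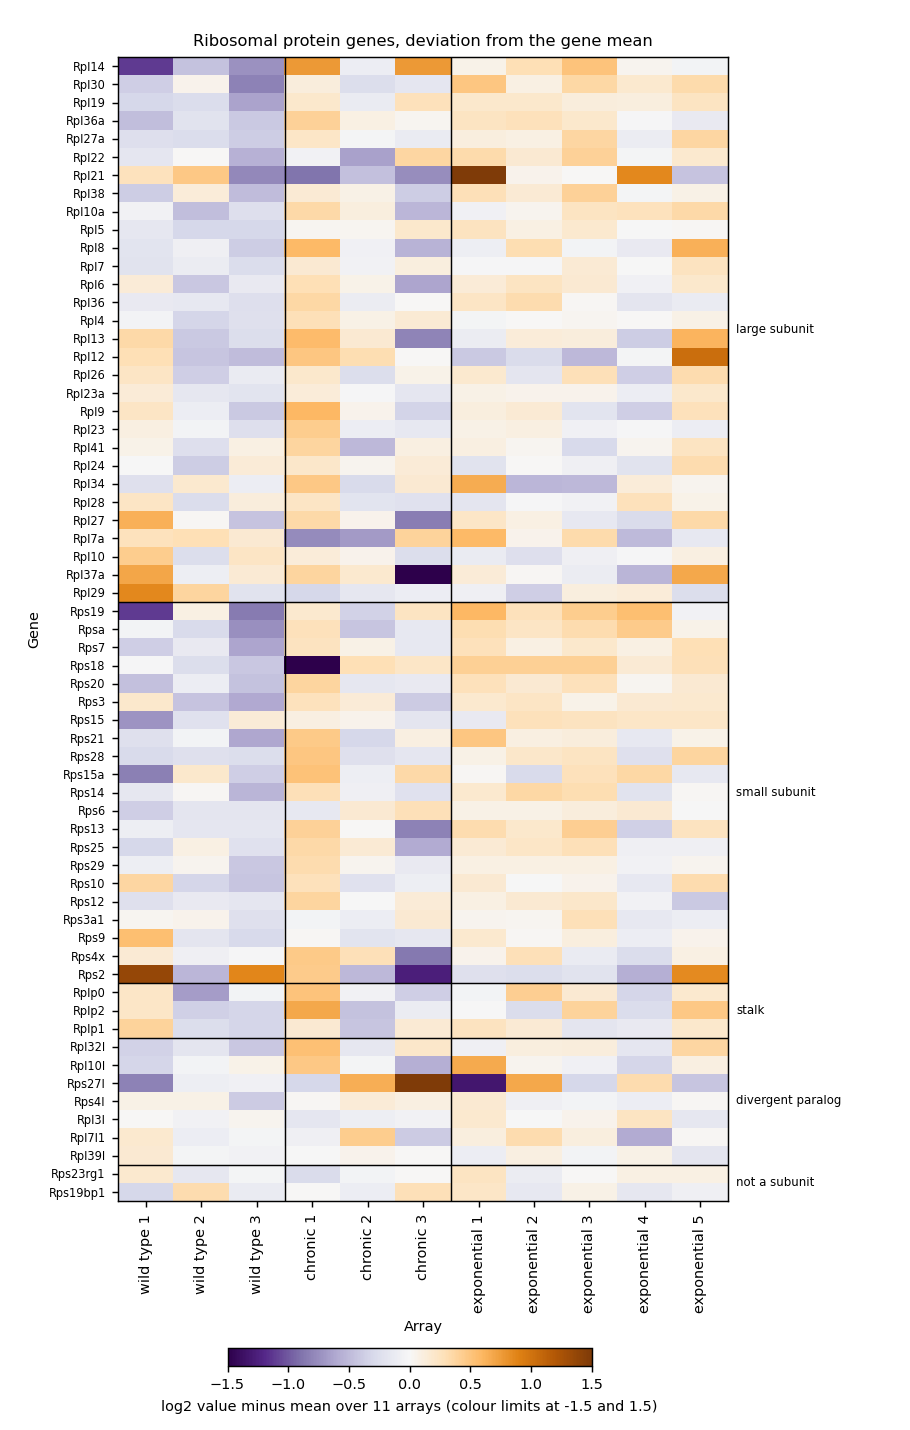
Each value of the 63 genes (rows, grouped by role and ordered by the exponential-phase difference) in the 11 arrays (columns) as its deviation from the gene's mean, in log2 units. Wild type 2 and 3 are mostly below the mean and chronic 1 mostly above. Single dark cells below the mean include Rps18 in chronic 1, Rpl37a and Rps2 in chronic 3 and Rps27l in exponential 1. Those above the mean include Rpl21 in exponential 1, Rps27l in chronic 3 and Rps2 in wild type 1.

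Array by array, the 54 subunit genes did not move uniformly within a group. The median deviation from each gene's own mean was -0.04, -0.17 and -0.28 in the wild-type arrays. It was 0.29, -0.06 and -0.14 in the chronic arrays and 0.13, 0.09, 0.14, -0.04 and 0.18 in the exponential ones. Chronic 1 was above the gene's mean for 47 of 54 genes, whereas chronic 2 and chronic 3 were each above it for 22. In wild type 3 only 8 genes were above their mean, in wild type 2 14 and in wild type 1 24. The exponential arrays 1, 2, 3 and 5 had 40, 43, 40 and 41 genes above their mean and exponential 4 had 19. Chronic 1 held the highest of the 11 values for 19 of the 54 genes, and wild type 3 the lowest for 18.

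**Figure D4:**
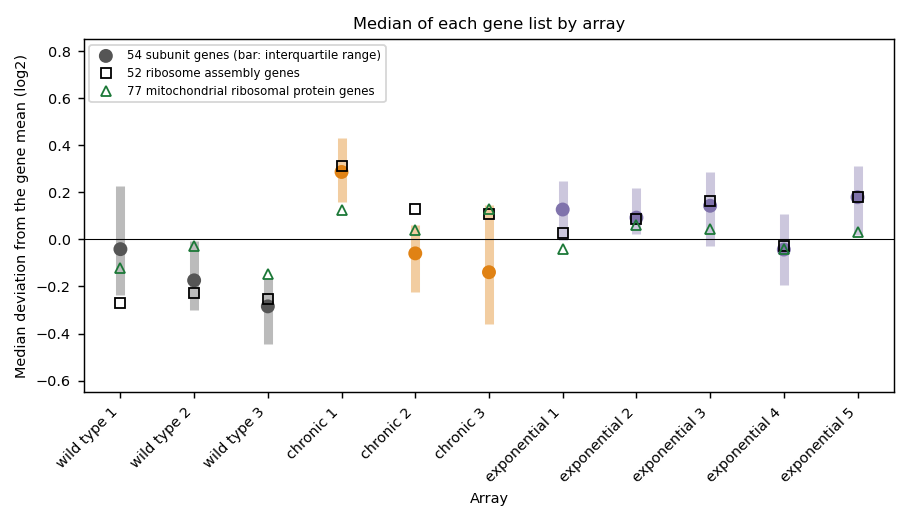
Median deviation from the gene mean (y axis, log2) of 3 gene lists in each of the 11 arrays (x axis): 54 cytosolic subunit genes (filled circles, with a bar over the interquartile range of the genes), 52 ribosome assembly genes (squares) and 77 mitochondrial ribosomal protein genes (triangles). Chronic 2 and 3 lie below 0 for the subunit genes at -0.06 and -0.14 and above 0 for the assembly genes at 0.13 and 0.11.

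Single values broke with the rest of an array. Rps18 measured 8.62 in chronic 1, the array in which most other subunit genes were high, against 9.70 to 10.53 in the other 10 arrays. Its other 6 rows did not share this dip: in chronic 1 none of them was at its lowest, and another row read 11.39 there, the highest of its 11 values. Rpl37a measured 8.41 in chronic 3, against 9.42 to 10.66 elsewhere. Rps2 was lowest in chronic 3, at 6.40, and highest in wild type 1, at 9.03. Rpl7a was low in chronic 1 and 2 and in exponential 4 (3.76), and lay between 4.11 and 4.83 in the other 8 arrays. The other rows of Rpl7a did not share the low value of chronic 1. They read 5.14 and 3.71 there, each the highest of its 11 values.

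Rows that carry the same gene name gave a partial check. In the exponential phase against wild type, 171 of the 195 rows of the 63 genes were above 0 (87.7%), with a median of 0.29. In the chronic phase 148 rows were (75.9%), with a median of 0.23. All rows had the same sign for 25 of the 38 genes with several rows in the exponential comparison and for 13 in the chronic one. For Rpsa all 5 rows were above 0 in the exponential phase, between 0.38 and 1.21, and with the mean of the rows Rpsa was called (limma adjusted p = 0.0387). All 7 rows of Rps18 were above 0 as well, between 0.39 and 0.77. Rpl19 was less uniform: its 6 rows ran from -0.37 to 0.77, and with their mean its difference was 0.30 (limma adjusted p = 0.296). Rps2 had 3 rows, of which the one described differed by -0.66, the others by -0.07 and 0.03. In the chronic phase all 3 rows of Rps2 were below wild type, the row described by -1.01 and the others by -0.57 and -0.90. In the row at -0.57 the groups did not overlap, at 6.97 to 7.28 in the chronic arrays and 7.36 to 8.20 in wild type. For Rpl21, 8 of 9 rows were above 0 in the exponential phase, while in the chronic phase 7 of 9 were above 0 and the row described was not.

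**Figure D5:**
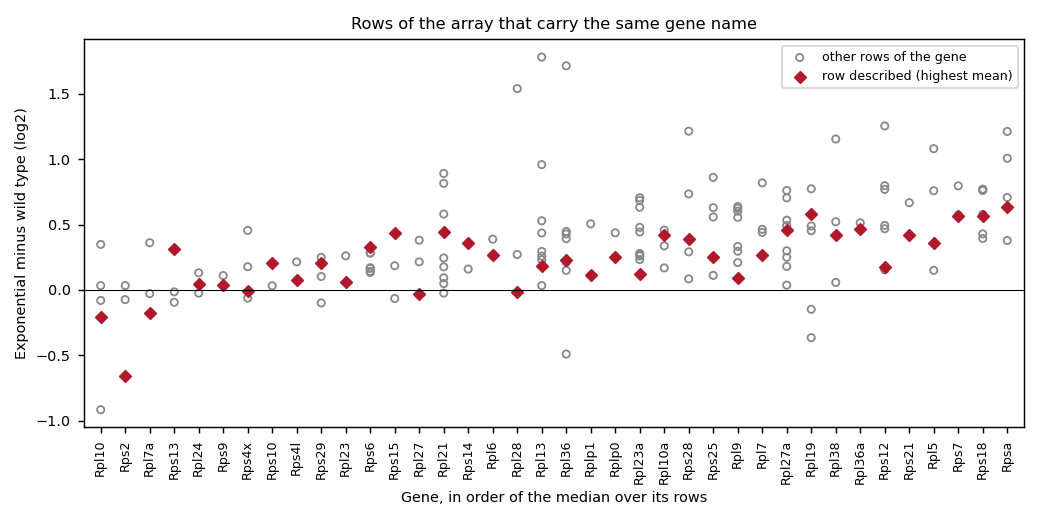
Exponential minus wild type difference (y axis, log2) of every array row of the 38 genes with several rows (x axis, ordered by the median over rows). Red diamonds are the rows described, chosen for the highest mean, and open circles the other rows. Most points lie above 0, and all rows have the same sign for 25 of the 38 genes. Rpl10, Rpl19, Rpl36 and Rps2 are among the genes with rows on both sides of 0.

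The sequence features were set beside the differences as a description. Of the 43 subunit genes with a promoter entry, 9 had a TOP start at an annotated first base. Their median difference between all leukemias and wild type was 0.33, with 8 above 0. The other 34 had a median of 0.20, with 27 above 0, and may include genes whose TOP start was not annotated. The 5 with CACGTG (Rpl14, Rpl19, Rpl23, Rpl34 and Rps19) had a median of 0.56 and ran from 0.07 to 1.05. That median is the value of the row described for Rpl19, whose other rows ran from -0.14 to 0.50 in this comparison. The other 38 had a median of 0.22 and ran from -0.79 to 0.52. For CCGGAAG the medians were 0.21 in 17 genes with it and 0.23 in 26 without. The motifs were chosen with the differences known, so these medians carry no test.

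Other genes of ribosome production were examined from lists of known members. Of 52 ribosome assembly genes, which act in the nucleolus to process ribosomal RNA and build subunits, 3 were called between all leukemias and wild type (0.722% of all genes), all higher, with a list median of 0.39 and 45 above 0 (51.1% of all genes). Ebna1bp2 rose by 0.79 (SE 0.12, limma adjusted p = 0.00942), Ddx21 by 0.80 (SE 0.12, limma adjusted p = 0.00967) and Ddx10 by 0.68 (SE 0.11, limma adjusted p = 0.0132), the latter 2 being RNA helicases. In the chronic phase 2 were called (Ebna1bp2 and Dkc1, 0.456% of all genes) and in the exponential phase 2 (Ebna1bp2 and Ddx21, 0.416%). For Ebna1bp2 the 8 leukemia arrays, 5.61 to 6.09, all lay above wild type, 4.92 to 5.12.

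Of 40 translation factor genes 1 was called between all leukemias and wild type (0.722% of all genes), Eef1e1, an auxiliary protein of the aminoacyl-tRNA synthetase complex, which rose by 1.07 (SE 0.20, limma adjusted p = 0.0265). The list had a median of 0.17. Of 16 other genes with TOP mRNAs 0 were called, with a median of 0.17 in the exponential phase and the smallest limma adjusted p of 0.0618 for Vim between all leukemias and wild type. The 77 mitochondrial ribosomal protein genes had a median of 0.11, with 1 called (again 0.722% of all genes), Mrps33, which rose by 1.06 (SE 0.21, limma adjusted p = 0.0384). In the chronic phase against wild type the mitochondrial median was 0.18, with 59 of 77 above 0 (49.7% of all genes). The translation factors had 0.24 there, with 30 of 40, and the 63 cytosolic genes 0.19, with 48. In the exponential phase the medians were 0.11 (58 of 77), 0.11 (30 of 40) and 0.21 (53 of 63), against 51.7% of all genes above 0. Of 18 mTORC1 genes, 6 host genes of small nucleolar RNAs, and Cdkn2a, Mdm2 and Mdm4 of the p53 response to ribosome stress, 0 were called in any comparison by limma. Fau, a fusion gene whose product includes a small-subunit protein, differed by -0.29 (SE 0.20, limma adjusted p = 0.694). Myc measured 6.81, 6.93 and 7.10 in wild type and 7.88 to 8.45 in the chronic phase, where it was called, and rose by 1.29 (SE 0.18, limma adjusted p = 0.0379). In the exponential phase Myc ran from 7.32 in exponential 4 to 9.42 in exponential 3, with a difference of 1.47 (SE 0.37, limma adjusted p = 0.163).

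Markers of cell identity moved with the groups as well, and the human transgene itself was not analysed here. The 5 T-cell markers had medians per array of 7.27 to 7.86 in wild type, 6.85 to 7.83 in the chronic phase and 7.32 to 7.59 in the exponential phase. Medians of 7 B-cell markers were 2.80 to 3.01, 2.54 to 2.81 and 2.56 to 3.63 in the same order, and those of 5 plasma-cell markers 3.67 to 5.23, 3.50 to 4.17 and 2.39 to 3.45. Cd8a ranged from 6.16 to 8.31 in wild type and from 6.71 to 8.12 in the chronic phase. It was 7.94 to 8.20 in 4 exponential arrays but 2.96 in exponential 4, which also had Cd4 at 5.18, above the wild-type range of 4.21 to 4.62. Cd4 was between 1.79 and 2.59 in the other 7 leukemia arrays. Of 8 myeloid markers all 8 were above wild type in the exponential phase and 1 was called there, Lyz2 (lysozyme), at 4.84 to 6.36 in the exponential arrays against 2.35 to 3.31 in wild type. The median over the myeloid list was 2.14 to 2.24 in wild type, 2.09 to 2.23 in the chronic arrays and 2.88 to 3.43 in the exponential ones. Of 5 red-cell markers 4 were below wild type in the exponential phase and 1 above it, with a median difference of -0.25. The median over this list was 2.74 to 3.10 in wild type and 2.27 to 3.05 in the chronic arrays. It was 2.35 to 3.69 in the exponential ones. Only Car1 of this list was called as lower in the exponential phase, at 1.82 to 5.29 against 8.53 to 9.79 in wild type. In the chronic phase Car1 was 2.27 in chronic 1 and 9.27 and 7.63 in chronic 2 and 3, and the plasma-cell gene Jchain was 6.44 in chronic 1 and 9.49 and 10.20 in the others. Chronic 1 is also the array without which the chronic median of the ribosomal protein genes was 0.05 in place of 0.19. The part of these other cells in the ribosomal protein values was not tested. Correlations between arrays over all genes ran from 0.946 to 0.984 within groups and from 0.936 to 0.979 between groups.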

How the data were processed

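Per the labels and the study's methods, total RNA of splenic T cells was hybridised to Affymetrix Mouse Gene 1.0 ST arrays, 11 in all. The authors deposited log2 values after RMA background correction and quantile normalization with the R package affy (version not given in the sources used here). The base of the logarithm was judged from the range of the values, 0.775 to 13.5. The sorted columns differed by at most 0.041, so all arrays share nearly the same distribution of values. Precision is limited by how many arrays there were, since arrays have no read depth. No detection calls were used here.

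Of 34760 rows, 21640 carried 1 gene symbol in the platform annotation, 1321 several and 11799 none. The row with the highest mean stood for a gene, which left 19937 genes. Each comparison was fitted on its own arrays with limma 3.58.1 (lmFit and eBayes, R 4.3.3) over all 19937 genes, with Benjamini-Hochberg adjustment. Calls needed an adjusted p below 0.05 together with a fold of 1.5 or more. The 4 comparisons share arrays and are not independent. The fit was tested on simulated data. Named genes were those called, or up to 5 with the smallest p in each direction of each comparison, a list of well-known members, and the 3 largest and 3 smallest spreads. Genes outside the definition were named from each list by smallest p or where called. The motifs, single-array values, and genes named for their rows were chosen after values were seen. The members, lists and tests were chosen with earlier results of these data known. Promoter sequences are from RefSeq (GRCm38.p6).

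Alternatives covered the fitted model, the normalization, a filter on dim genes, the choice of rows, the fold threshold and leaving out each array.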

Additional observations from a re-analysis of the deposited data

Results flagged for a closer look

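Among 34 series of exponential-phase values tested for a single distant array, 2 were flagged. Chance alone flags about 1 in 20 independent series. These series share arrays and genes, so the count cannot be judged against that rate. The median deviation of the 63 genes from their own means was -0.054 in exponential 4, against 0.09 to 0.14 in the other exponential arrays. Rps2 measured 8.51 in exponential 5, against 7.09 to 7.46 in the others.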

How the results depend on the processing

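The number of genes called between all leukemias and wild type was 1 in the main analysis (Rpl14), 0 with the methods' t-test, 0 when all rows were tested and 2 without the fold threshold (Rpl14 and Rpl19). It ran from 0 to 2 when single arrays were left out. Between the exponential phase and wild type it was 0 in the main analysis, 2 with array weights (Rpl19 and Rps18), 1 with rows averaged per gene (Rpsa), and 0 to 2 when single arrays were left out. Between the chronic phase and wild type it was 0, and 0 to 1 when single arrays were left out. The share of all genes called in each of these alternative runs is not given here. These counts therefore do not set the ribosomal protein genes apart from other genes. The median difference ran from 0.055 to 0.30 for the chronic phase against wild type and from -0.033 to 0.21 between the phases when single arrays were left out. Against wild type it ran from 0.19 to 0.29 for the exponential phase and from 0.16 to 0.27 for all leukemias. With cyclic loess the medians were 0.14, 0.17, 0.08 and 0.16 for the chronic and exponential phases against wild type, between the phases and for all leukemias, and the median of all genes moved by less than 0.01. The difference of Rpl14 between all leukemias and wild type stayed above 0 in each alternative run. The methods' t-test at its own threshold, an unadjusted p below 0.05 and a fold of at least 1.5, gave 1, 4, 0 and 2 of the 63 genes in these comparisons (3.12%, 2.39%, 0.617% and 2.72% of all genes), and after Benjamini-Hochberg adjustment 0 in each.

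Arrays of different groups share replicate numbers, but the deviations of same-numbered arrays correlated between -0.04 and 0.18, so the numbers were not taken to pair them. With the replicate number as a block the count for the exponential phase was 1 (Rpl14, limma adjusted p = 0.0418) in place of 0, and no other count of called ribosomal protein genes changed.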
